A study of Homo sapiens with 42 samples.

Results

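The LSAU-BSAT composites are beta satellite regions whose names join beta satellite (BSAT) to another repeat, LSAU. Of the 64, 41 add no_beta to that label, which the sources used here do not explain, and composite is used here for the name alone. They were taken from the deposited count table as every beta satellite region whose name carries the words LSAU-BSAT, which gave 64 of 2523 centromeric and satellite regions. The other 120 of the 184 beta satellite regions carry no LSAU in their name. Of the 64 composites, 45 lie on the acrocentric chromosomes 13, 14, 15, 21 and 22, and 19 lie on chromosomes 1, 3, 5, 9, 10, 16, 20 and Y. The rule uses names alone, but the composites were singled out with earlier results of these data known, among them their change under mitoxantrone in TOP2B pulldown. That contrast, and every comparison that holds it, is therefore described here without a test.

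Beta satellite is a tandem repeat of the short arms of acrocentric chromosomes, where it flanks the ribosomal DNA arrays, and of the pericentromeres of some other chromosomes. Topoisomerase 2 passes one DNA duplex through a temporary cut in another, and human cells have the forms TOP2A, most abundant in dividing cells, and TOP2B, present in dividing and resting cells. Etoposide and mitoxantrone are poisons that hold the enzyme on the DNA it has cut. DNA pulled down with an antibody to TOP2A or TOP2B without a chemical crosslinker was therefore taken as DNA that held the enzyme.

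The cells came from KG-1, an established cell line of human acute myelogenous leukaemia. In the etoposide series, 4 replicas each gave TOP2A, TOP2B and input libraries from cells kept for 1 h in 100 µM etoposide, and the same set from cells in vehicle. In the mitoxantrone series, 3 replicas gave the same 6 libraries with 20 µM mitoxantrone or vehicle. All groups share the cell line, the sonication without formaldehyde, the treatment of the DNA with TDP2, an enzyme that frees TOP2 from DNA ends, and the BsmAI digest. The labels do not say whether replicas were grown and treated separately, so p-values measure the spread between these samples, which may be technical.

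The 42 libraries held 23900 to 3207823 reads in the 2523 regions, of which 70 to 20925 (median 2555) lay in the composites. Composites took 0.262% to 2.08% of the region reads of a library (median 0.549%). The 6 libraries of mitoxantrone replica 1 stood apart, with 1.13% to 2.08% against 0.262% to 1.18% in the other 36. They were also the only libraries with 100 bp reads, in a sequencing order of their own, and set aside 54.5% to 68.3% of their reads for low mapping quality, a share that ran from 21.1% to 68.3% over all libraries. The part of read length, order or mapping quality in the level of the composites was not tested. Copies of these repeats resemble each other, so a read may belong to a copy other than the one it was counted in, and the value of a single region is uncertain to that degree. Counts cannot be set against each other as levels between regions, because region lengths were not used here.

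A few composites held most of the reads. bsat_1_1, on chromosome 1, held 21.4% of the 194043 composite reads of all libraries. bsat_22_6 held 20.4%, bsat_22_12 13.8%, bsat_15_1 10.1%, bsat_14_9 7.54% and bsat_14_8 5.68%. These 6 regions together held 78.9% of the reads. Chromosome 22 held 41.2%, chromosome 14 17.2% and chromosome 15 11.1%, whereas the 5 regions of chromosome 13 held 0.275% and the 7 of chromosome 21 held 1.65%. Among the 19 composites outside the acrocentric chromosomes, bsat_1_1 alone had a mean above 50 reads, against 8 of the 45 acrocentric composites. A mean of at least 10 reads per library was reached by 30 of the 64, and bsat_21_9 had no read in any library.

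By their SD, the largest composites kept a steady share of the composite reads. bsat_22_6 took 20.3% ± 1.29 of them (SD over 42 libraries), from 16.3% to 23.0%. bsat_1_1 took 21.2% ± 2.26, from 14.7% to 31.8%, and bsat_22_12 took 13.4% ± 1.38, from 10.8% to 18.6%. bsat_15_1 varied more for its size, at 9.37% ± 2.63, from 4.56% to 14.3%. The summed composites on acrocentric chromosomes and those on other chromosomes moved together from library to library. bsat_1_1 held 41505 of the 55492 reads of the others, so their sum is mostly that region. Their summed shares of region reads, on the log2 scale, had a Pearson r of 0.97 and a Spearman rho of 0.95 over 42 libraries, and an r of 0.92 over the 36 libraries without mitoxantrone replica 1. The libraries of a replica share cells and sequencing order, so these are not 42 independent points. By the same measure the next classes for the acrocentric composites were other centromeric satellites (r 0.75, rho 0.67) and HSat5 (r 0.71, rho 0.74). Without mitoxantrone replica 1 their order turned, with r 0.49 for other centromeric satellites and 0.65 for HSat5. Beta satellite without LSAU had r -0.15 against the acrocentric composites and -0.32 against the others, and 0.05 and -0.22 without that replica, so the first has no settled sign.

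**Figure D1:**
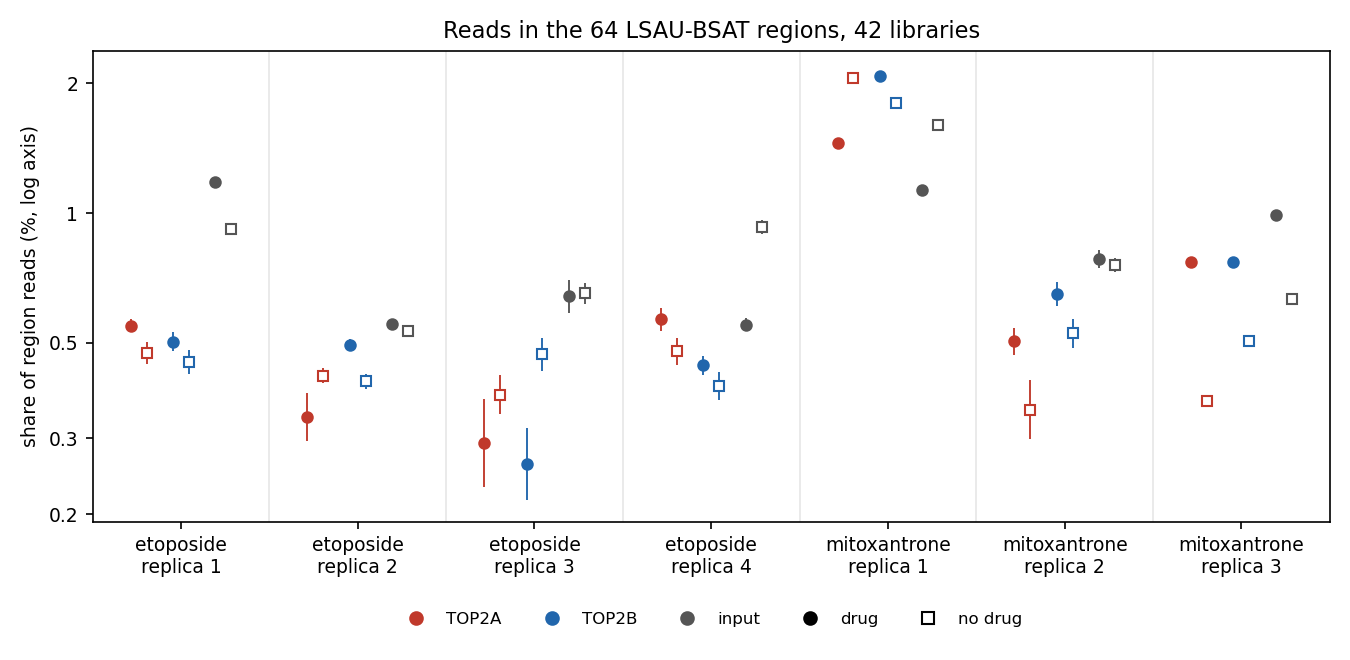
Share of region reads in the 64 LSAU-BSAT composites (percent, log axis) in each of the 42 libraries, by replica. Filled circles are drug and open squares no drug, and bars are Wilson 95% intervals, which cover counting error only. The 6 libraries of mitoxantrone replica 1 lie between 1.13% and 2.08%, and in most other replicas both pulldowns lie below the input.

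The composites were less represented in pulled-down DNA than in input of the same replica in most sets. Without drug, the TOP2A pulldowns held 0.474%, 0.420%, 0.379% and 0.478% of region reads in etoposide-series replicas 1 to 4, the TOP2B pulldowns 0.452%, 0.407%, 0.470% and 0.397%, and the inputs 0.917%, 0.532%, 0.651% and 0.927%. In this series no untreated pulldown reached the lowest untreated input. In the mitoxantrone series, the untreated TOP2A pulldowns held 2.06%, 0.350% and 0.366% in replicas 1 to 3, the TOP2B pulldowns 1.81%, 0.526% and 0.505%, and the inputs 1.61%, 0.758% and 0.631%. Replicas 2 and 3 had both pulldowns below their input, and replica 1 had both above it.

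Over the 7 replicas without drug, the log2 ratio of TOP2A to input averaged -0.65 ± 0.51 (SD, 0.636-fold) and was below 0 in 6. The ratio of TOP2B to input averaged -0.54 ± 0.46 (0.688-fold) and was below 0 in 6. Mitoxantrone replica 1 was the exception for both, at 0.36 for TOP2A and 0.17 for TOP2B. Without it the means were -0.82 and -0.66. In the sequencing order that held 3 of the replicas, the mean was -0.95 for TOP2A and -0.74 for TOP2B, and every other order held 1 replica. TOP2A and TOP2B differed by less than the spread between replicas, with a log2 ratio of -0.11 ± 0.34, above 0 in 4 of 7 replicas.

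Depth also differed between these libraries. Untreated TOP2A pulldowns had a median of 247902 region reads, TOP2B pulldowns 198952 and inputs 518911. The median share of reads set aside for low mapping quality was 42.9%, 37.6% and 37.4% in the same order. The part of depth and mapping quality in the difference was not tested.

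Region by region, 24 of the 64 composites passed the filter on low counts and were tested among 1028 regions over the 21 untreated libraries, with the replica as a block. All 24 had a fitted log2 difference below 0 in TOP2A against input, with a median of -0.60, while 534 of the 1028 regions were below 0 with a median of -0.01. With voom or without the replica block, 23 of the 24 composites lay below 0. In edgeR's quasi-likelihood test, 0 of the 24 composites and 0 of the 1028 regions (0%) passed an adjusted p of 0.05. The lowest adjusted p of a composite was 0.134. At an unadjusted p under 0.05, edgeR had 13 of the 24 composites and 151 regions (14.7%). DESeq2 called 26 regions (2.53%), all lower in TOP2A, and 7 of them were composites. With no filter on low counts, edgeR tested every region that had a read, a larger base, and its count cannot be set against the others. It called 39 of at most 2523 regions, and 7 of them were among the 63 composites that had reads. In that fit 51 of the 63 composites that had reads lay below 0, with a median of -0.48 against -0.06 over all regions. With the filter but without mitoxantrone replica 1, edgeR called 46 of 937 regions (4.91%). These held 9 of the 17 composites then tested, all 9 of them lower in TOP2A.

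The 9 were bsat_1_1, bsat_22_6, bsat_22_12, bsat_14_9, bsat_15_1, bsat_22_8, bsat_10_1, bsat_14_8 and bsat_20_5, so 6 of them lie on acrocentric chromosomes and 3 elsewhere. The first 7 are those that DESeq2 called over all 7 replicas. bsat_1_1 had 747 to 4192 CPM (counts scaled to 1000000 region reads) in untreated TOP2A pulldowns (median 932) and 1103 to 3284 in inputs (median 1706). The ranges overlapped, with replicas 1 and 2 of the mitoxantrone series (4192 and 1114 CPM) above the lowest input, and the fitted log2 difference was -0.77 (SE 0.18, edgeR adjusted p 0.134). Without that replica, edgeR gave -0.98 (SE 0.16, adjusted p 0.00839).

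bsat_22_6 had 637 to 3976 CPM in untreated TOP2A pulldowns (median 866) and 1083 to 3087 in inputs (median 1571). Its log2 difference was -0.72 (SE 0.18, edgeR adjusted p 0.134), and -0.93 (SE 0.16, adjusted p 0.00839) without mitoxantrone replica 1. bsat_10_1, a small composite on chromosome 10, had the lowest fitted difference among the composites with a mean of at least 20 reads. It had 10.5 to 207 CPM in TOP2A pulldowns (median 20.4) and 26.6 to 198 in inputs (median 78.0), and its log2 difference was -1.07 (SE 0.29, edgeR adjusted p 0.134). It was lower in TOP2A than in input in 6 of 7 replicas, and lower than in TOP2B in 7 of 7. bsat_20_5 had a log2 difference of -0.97 (SE 0.33, edgeR adjusted p 0.187), and -1.57 (SE 0.34, adjusted p 0.0156) without mitoxantrone replica 1.

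**Figure D2:**
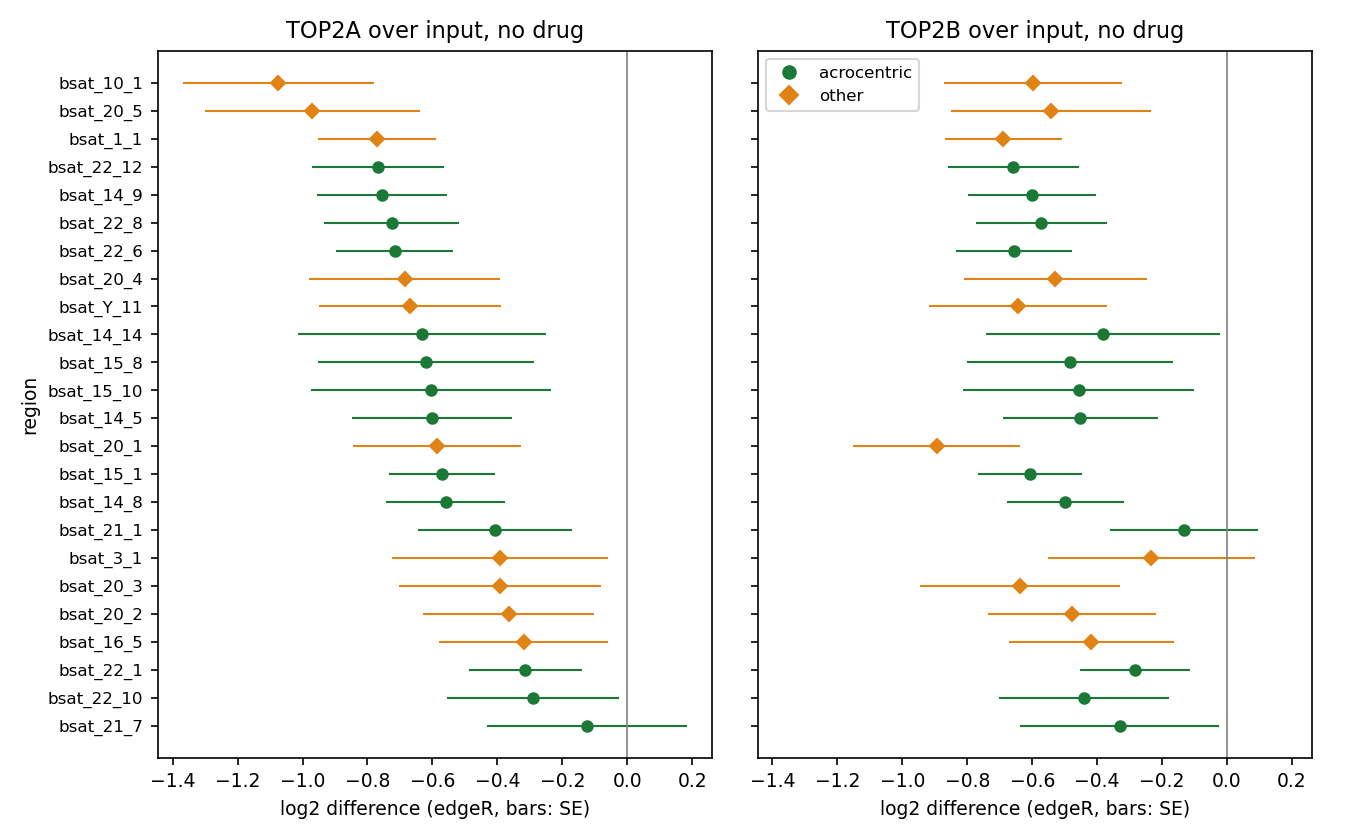
Fitted log2 difference of untreated TOP2A (left) and TOP2B (right) pulldown against input for the 24 composites tested, with SE bars, over 7 replicas. Circles are acrocentric and diamonds other chromosomes. All 24 points lie below 0 in both panels, from -1.07 to -0.12 for TOP2A and from -0.89 to -0.13 for TOP2B.

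At the other end, bsat_21_7 was closest to 0 for TOP2A and bsat_21_1 for TOP2B. bsat_21_7 had a log2 difference of -0.12 (SE 0.31) for TOP2A and -0.33 (SE 0.31) for TOP2B, and bsat_21_1 had -0.41 (SE 0.24) and -0.13 (SE 0.23). Both lie on chromosome 21. For TOP2A, composites elsewhere also lay closer to 0 than bsat_21_1, such as bsat_22_10 at -0.29 and bsat_16_5 at -0.32. bsat_22_1 was lower in TOP2A than in input in 4 of 7 replicas, with a log2 difference of -0.31 (SE 0.17), although it lies on the same chromosome as bsat_22_6. For the summed composites of a chromosome, the mean over replicas was -0.14 ± 0.36 on chromosome 21, -0.62 ± 0.55 on chromosome 15, -0.66 ± 0.55 on chromosome 22, -0.66 ± 0.58 on chromosome 14 and -0.69 ± 0.65 on chromosome 20. The chromosome 13 composites had no read in 4 of the 7 untreated TOP2A pulldowns, where a count of 0 allows up to 3 reads, and no ratio is given for them.

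TOP2B against input gave the same counts below 0, 24 of 24 composites with a median of -0.51 (22 of 24 with voom), while 543 of the 1028 regions were below 0 with a median of -0.01. edgeR called 0 of 1028 regions (0%), with a lowest adjusted p of 0.459 among the composites, and DESeq2 called 0 (0%). At an unadjusted p under 0.05, edgeR had 10 of the 24 composites and 71 regions (6.91%). Without mitoxantrone replica 1 it still called 0 of 937 regions (0%). bsat_1_1 had 845 to 3777 CPM in untreated TOP2B pulldowns (median 975), and a log2 difference to input of -0.69 (SE 0.18, edgeR adjusted p 0.459). bsat_20_1 had -0.89 (SE 0.26, adjusted p 0.459). TOP2A against TOP2B without drug had 0 of 24 composites and 0 of 1028 regions called by edgeR (0%) and 0 by DESeq2 (0%), with 0 composites and 2 regions (0.195%) at an unadjusted p under 0.05.

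The rest of beta satellite was split in the same libraries. Of the 46 beta satellite regions without LSAU that were tested, 28 had a log2 difference above 0 in TOP2A against input, with a median of 0.16. Summed, they had a log2 ratio of 0.16 ± 0.62, above 0 in 2 of 7 replicas. Within replicas, the log2 ratio of composites to the rest of beta satellite was -0.81 ± 0.92 in TOP2A against input and -0.62 ± 0.87 in TOP2B against input (SD, n = 7), below 0 in 6 of 7 replicas each. Gamma satellite, a GC-rich pericentromeric repeat, had all 21 tested regions below 0, with a median of -0.83 for TOP2A and -0.66 for TOP2B. These lists were not tested as sets.

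Under etoposide the pulldowns again held fewer composite reads than input. TOP2A pulldowns held 0.547%, 0.336%, 0.293% and 0.567% in replicas 1 to 4, TOP2B pulldowns 0.503%, 0.494%, 0.262% and 0.443%, and inputs 1.18%, 0.552%, 0.641% and 0.551%. Only the TOP2A pulldown of replica 4 exceeded its input. The log2 ratio to input was -0.72 ± 0.55 for TOP2A and -0.75 ± 0.59 for TOP2B (SD, n = 4). Of 20 composites tested, 19 lay below 0 in each, with medians of -0.70 and -0.96. The medians of all 1068 regions were -0.15 and -0.06.

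No region was called in these comparisons by edgeR or DESeq2, in fits that took no account of the replica. For TOP2A against input under etoposide edgeR called 0 of 1068 (0%), with 1 composite and 27 regions (2.53%) at an unadjusted p under 0.05. For TOP2B it called 0 of 1068 (0%), with 4 composites and 11 regions (1.03%). bsat_22_8 had the lowest TOP2A difference among the composites with enough reads, at -1.10 (SE 0.51, edgeR adjusted p 0.995), with 145.5, 56.3, 0 and 132 CPM in TOP2A pulldowns and 346, 165, 181 and 198 CPM in inputs. No pulldown reached the lowest input. The pulldowns held 84, 4, 0 and 24 reads of this region and the inputs 314, 187, 14 and 114, so replicas 2 and 3 rest on few reads. Among the composites with a mean of at least 20 reads in this series, bsat_Y_11 had the lowest TOP2B difference, at -1.63 (SE 0.62, edgeR adjusted p 0.999). It had 47.2, 26.3, 0 and 47.6 CPM in TOP2B pulldowns and 154.5, 54.5, 168 and 29.6 CPM in inputs. Its ranges overlapped through replica 4.

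Under mitoxantrone the picture was mixed. TOP2A pulldowns held 1.46%, 0.504% and 0.771% in replicas 1 to 3, TOP2B pulldowns 2.08%, 0.650% and 0.770%, and inputs 1.13%, 0.783% and 0.993%. Replica 1 lay above its input in both pulldowns and the other two lay below. The log2 ratio was -0.21 ± 0.52 for TOP2A and 0.08 ± 0.69 for TOP2B (SD, n = 3). Without replica 1 the TOP2B mean was -0.32, so the sign of that mean rests on 1 replica. edgeR called 0 of 1416 regions in either comparison (0%), with 0 of 50 composites in each, and 3 regions (0.212%) for TOP2A and 0 (0%) for TOP2B, at an unadjusted p under 0.05. DESeq2 called 0 in both. These fits took no account of the replica. The TOP2B comparison uses mitoxantrone libraries that the contrast the composites were chosen from also uses, so it is not independent of that choice.

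Counting all 14 sets of replica and treatment, the composites took a smaller share of the TOP2A pulldown than of its input in 11, with Wilson intervals that did not overlap in those 11. TOP2B was below its input in 12 of 14, again with separate intervals in all 12. Each had 2 sets above input with separate intervals, both of them from mitoxantrone replica 1. Wilson intervals cover counting error only, so separate intervals do not show a difference beyond the spread between libraries. The 2 sets of a replica are not independent.

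**Figure D3:**
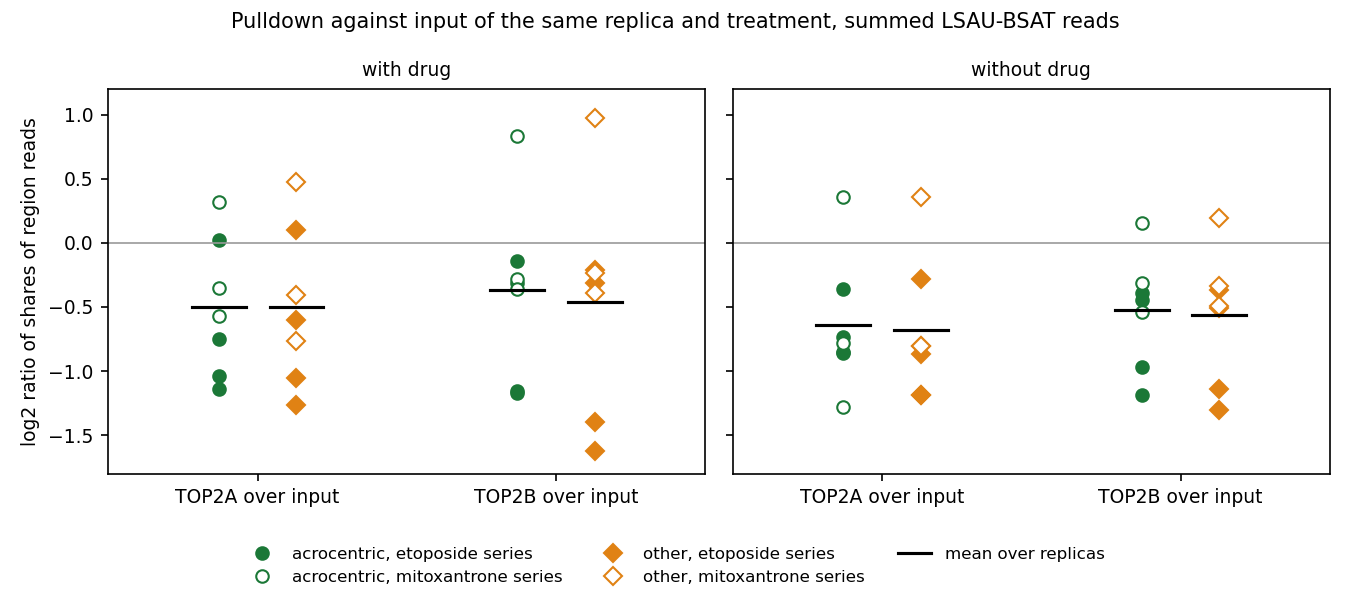
Log2 ratio of the share of region reads in pulldown over input of the same replica and treatment, with drug (left) and without drug (right), for acrocentric composites (circles) and those on other chromosomes (diamonds). Each point is 1 replica and black lines are means. The ranges of acrocentric and other composites overlap in every column.

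With etoposide, the composites showed no shared direction. In TOP2A pulldown, the shares given above correspond to log2 changes of 0.21, -0.32, -0.36 and 0.25 against no drug in replicas 1 to 4. In TOP2B pulldown the changes were 0.15, 0.28, -0.84 and 0.16, and in input 0.37, 0.05, -0.02 and -0.75. The means were -0.06 ± 0.33, -0.06 ± 0.52 and -0.09 ± 0.47 (SD, n = 4), each smaller than its spread. Replica 3 decided the TOP2B mean, which was 0.20 without it. Replica 3 had 70 and 102 composite reads in its etoposide TOP2A and TOP2B libraries, the fewest of the series. In replicas 3 and 4, not every drug library resembled its no-drug partner more than that of another replica.

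The abundant composites varied within the spread between replicas. bsat_1_1 had 1179.9, 774, 628 and 1175 CPM in etoposide TOP2A pulldowns and 932, 906, 747 and 936 CPM in no-drug TOP2A pulldowns. The etoposide values straddled those without drug. In TOP2B it had 1083, 1031, 385 and 947 CPM with etoposide and 975, 845, 941 and 858 CPM without. bsat_10_1 had the highest fitted TOP2A change, 1.09 on the log2 scale (SE 0.70, edgeR adjusted p 0.999), with 41.6, 42.2, 0 and 38.6 CPM against 20.2, 20.4, 10.5 and 19.4 CPM. It was higher with etoposide in 3 of 4 replicas and had no read in the shallow replica 3. These values came from few reads, 24, 3, 0 and 7 with etoposide and 5, 12, 1 and 3 without. bsat_16_5 had the lowest, -0.64 (SE 0.91, edgeR adjusted p 0.999), and no etoposide TOP2A read in replicas 2 and 3.

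Of the 20 composites tested, the fitted change was above 0 for 15 in TOP2A (median 0.23), 5 in TOP2B (median -0.12) and 3 in input (median -0.14), while the medians of all 1068 regions were -0.05, 0.07 and 0.09. In TOP2A the median over regions and the mean of the summed share had opposite signs. The fits of this series took no account of the replica, whereas summed shares were compared within replicas. Few calls in such fits do not show that nothing changed. edgeR called 0 of 1068 regions in each of these (0%), with 0 composites at an unadjusted p under 0.05 and 7 (0.655%), 8 (0.749%) and 0 (0%) regions. DESeq2 called 0 in each. The etoposide effect in pulldown minus that in input was 0.03 ± 0.65 for TOP2A and 0.03 ± 0.73 for TOP2B on the summed share. TOP2A and TOP2B effects differed by 0.01 ± 0.44. edgeR called 0 of 1068 regions in those 3 comparisons as well (0%), with 0 composites at an unadjusted p under 0.05 and 5 (0.468%), 0 (0%) and 6 (0.562%) regions.

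Mitoxantrone went with a larger composite share in TOP2B pulldown in every replica, which is the contrast the composites were chosen from. The log2 changes were 0.20, 0.30 and 0.61 (mean 0.37 ± 0.21). In TOP2A pulldown they were -0.50, 0.52 and 1.07 (mean 0.37 ± 0.80), and in input -0.50, 0.05 and 0.65 (mean 0.07 ± 0.58). Replica 3 had the largest change in all 3 kinds of library, and its input changed by as much as its TOP2B pulldown. Taken over the input of the same replica, the TOP2B change was 0.70, 0.26 and -0.04, a mean of 0.31 ± 0.38, and the TOP2A change was 0.00, 0.48 and 0.42, a mean of 0.30 ± 0.26. TOP2A and TOP2B effects differed by -0.01 ± 0.61.

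bsat_22_6 had 4190 (replica 1), 1351 and 1646 CPM in mitoxantrone TOP2B pulldowns and 3401, 1036 and 1061 CPM without drug. It was higher with the drug in 3 of 3 replicas, by a mean log2 change of 0.44 ± 0.17. bsat_1_1 had 4080 (replica 1), 1384 and 1607 CPM with mitoxantrone and 3777, 1156 and 1077 CPM without, a mean change of 0.32 ± 0.24. bsat_15_1 had 2007, 470 (replica 2) and 950 (replica 3) CPM with mitoxantrone and 1609, 367 and 592 CPM without, a mean change of 0.45 ± 0.20. Replica 1 was the highest in each of these 3 regions, with and without drug. bsat_14_8 had a mean change of 0.08 ± 0.38 and was higher in 1 of 3 replicas. Among the composites with a mean of at least 20 reads in this series, bsat_22_17 had the highest fitted change, 1.70 on the log2 scale (SE 1.14). It had 206, 33.1 and 16.4 CPM against 51.5, 15.9 and 7.25 CPM. It is a composite of few reads outside replica 1.

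Of the 50 composites tested in this series, 43 had a fitted TOP2B change above 0 (median 0.34), which describes the contrast they were chosen from. For TOP2B, neither the median of all regions nor a value with the replica as a block is given here. The count of 43 is thus not set against a base. In TOP2A 18 of the composites were above 0 (median -0.15) and in input 16 (median -0.18). The medians of all regions were -0.05 in both. In TOP2A and input the median over regions and the mean of the summed share had opposite signs. With the replica as a block the medians were 0.22 for TOP2A and 0.13 for input, so both signs turned. For TOP2A and for input edgeR called 0 of 1416 regions (0%), with 0 composites at an unadjusted p under 0.05 and 5 (0.353%) and 1 (0.0706%) regions. DESeq2 called 0 in each. The mitoxantrone effect in TOP2A minus input had 0 of 1416 regions called by edgeR (0%) and 0 at an unadjusted p under 0.05 (0%).

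**Figure D4:**
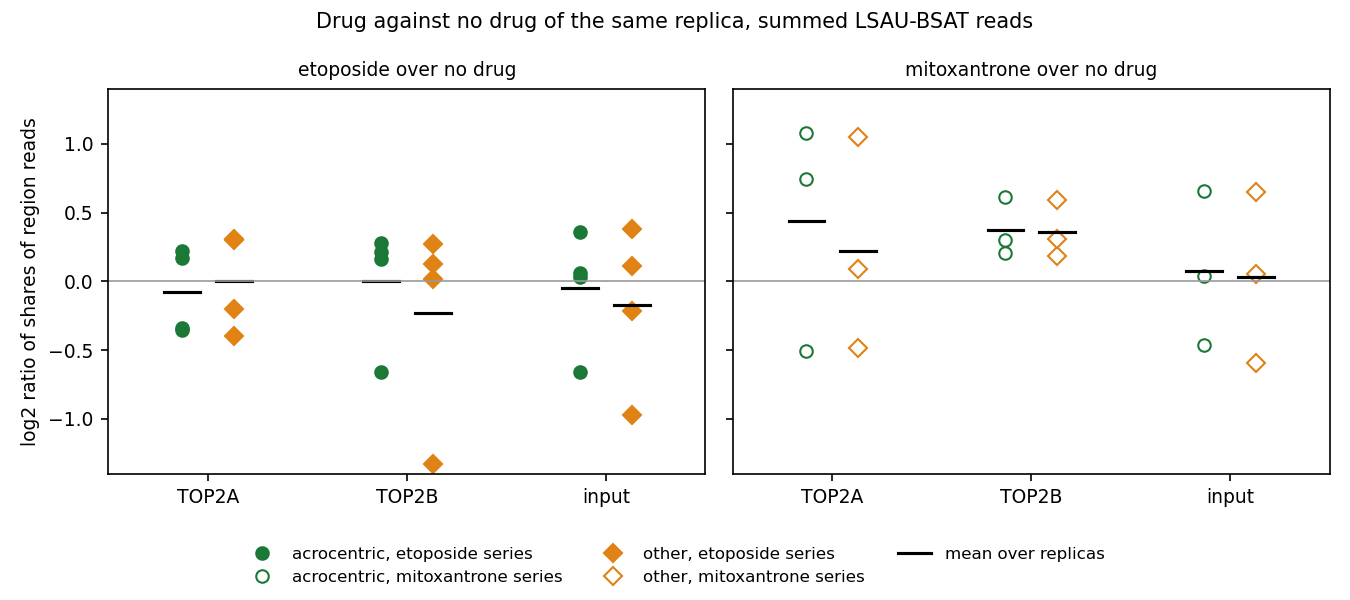
Log2 ratio of the share of region reads with drug over no drug of the same replica, for etoposide (left, 4 replicas) and mitoxantrone (right, 3 replicas), in acrocentric composites (circles) and those on other chromosomes (diamonds). Black lines are means. Mitoxantrone TOP2B, the contrast the composites were chosen from, is the only column whose points all lie above 0.

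The drugs were also set against each other over all 42 libraries, with 44 composites among 1372 regions tested. The etoposide effect minus the mitoxantrone effect had a median of 0.27 over the composites in TOP2A, -0.52 in TOP2B and -0.06 in input, while the medians of all regions were -0.13, 0.08 and 0.15. These medians take no account of the replica. With the replica as a block the TOP2A median was -0.25, the TOP2B median -0.59 and the input median -0.29, and without mitoxantrone replica 1 the TOP2A median was -0.99 over 29 composites, so the direction in TOP2A is not settled. The summed shares above also had a lower mean change with etoposide than with mitoxantrone in TOP2A. The TOP2B difference holds the contrast that chose the composites and is given with no test. For TOP2A and for input edgeR called 0 of 1372 regions (0%), and 0 composites. At an unadjusted p under 0.05 there were 1 and 0 composites and 6 (0.437%) and 0 (0%) regions. Over the 18 comparisons that do not hold mitoxantrone against no drug in TOP2B, the 26 DESeq2 calls all lay in untreated TOP2A against input, and voom called 1 region, which was no composite. The doses differed and so did the sequencing orders, and the drugs' effects and the series cannot be told apart.

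The change in the ratio of acrocentric to other composites was smaller than its SD between replicas in 17 of 19 comparisons of drug, isoform or pulldown. Acrocentric composites held 60.4% to 78.4% of the composite reads of a library (median 71.2%). The reads of the other composites were mostly those of bsat_1_1. Without drug, the ratio of acrocentric to other composites was 0.04 ± 0.28 on the log2 scale in TOP2A against input and 0.04 ± 0.09 in TOP2B against input (SD, n = 7). The separate changes were -0.64 ± 0.52 for acrocentric composites and -0.68 ± 0.55 for the others in TOP2A, and -0.53 ± 0.44 and -0.57 ± 0.51 in TOP2B.

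With mitoxantrone, the acrocentric ratio changed by 0.01 ± 0.02 in TOP2B, 0.22 ± 0.38 in TOP2A and 0.04 ± 0.08 in input. The TOP2B value was -0.09 without bsat_1_1, the most abundant composite outside the acrocentric chromosomes. The TOP2A value came from replica 2, at 0.66, where the no-drug library had 154 composite reads. With etoposide it changed by 0.23 ± 0.31 in TOP2B, higher in 4 of 4 replicas at 0.04, 0.01, 0.67 and 0.20, by -0.08 ± 0.10 in TOP2A and by 0.12 ± 0.21 in input. The highest TOP2B value came from replica 3, whose etoposide library had 102 composite reads, 78.4% of them acrocentric (Wilson 95% interval 69.5% to 85.3%). Its no-drug partner had 69.2% (65.1% to 73.1%), so the intervals overlapped.

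The 2 comparisons whose mean exceeded its SD were differences between etoposide effects. The effect on the acrocentric ratio in TOP2A minus that in TOP2B was -0.17, -0.17, -0.61 and -0.29 in replicas 1 to 4, a mean of -0.31 ± 0.21 on the log2 scale. The effect in TOP2A minus that in input was -0.11, -0.07, -0.22 and -0.41 in the same order, a mean of -0.20 ± 0.15. All 4 replicas lay below 0 in both. The 2 comparisons were picked out of 19 because their mean exceeded the SD, so the shared sign is a description only. Within the sequencing order that held 2 of these replicas the means were -0.45 and -0.31. Without replica 3, which had 70 and 102 composite reads in its etoposide pulldowns, they were -0.21 and -0.20. In replica 2 the etoposide TOP2A library held 239 composite reads, 68 of them outside the acrocentric chromosomes. Its acrocentric share of composite reads was 71.5% (Wilson interval 65.5% to 76.9%). Its no-drug partner had 73.6% (71.9% to 75.3%), so the intervals overlapped. The 2 differences share their TOP2A libraries, and neither was tested. In replicas 3 and 4, not every drug library resembled its no-drug partner more than that of another replica.

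**Figure D5:**
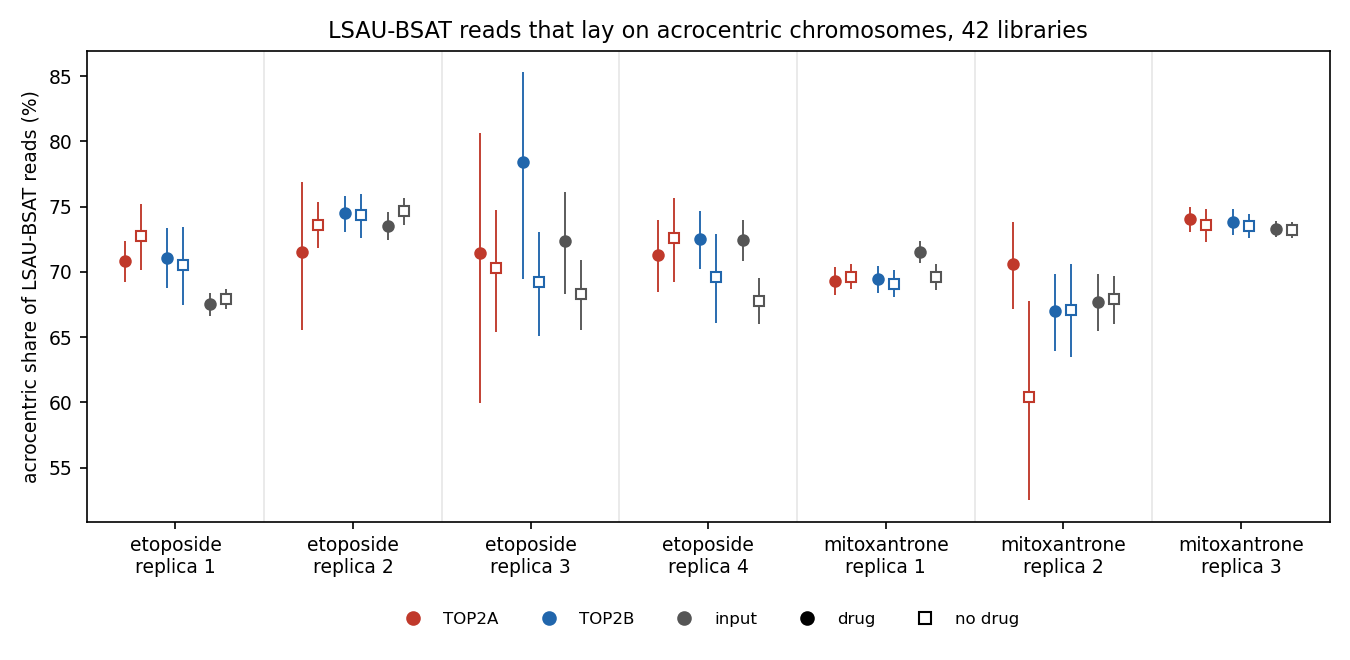
Share of the LSAU-BSAT reads of each library that lay on acrocentric chromosomes (percent), by replica, with Wilson 95% intervals that cover counting error only. Filled circles are drug and open squares no drug. All but 2 libraries lie between 67.0% and 74.6%, and those 2 held 154 and 102 composite reads.

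Most of the variance of the composite share lay between replicas. Of the variance of the log2 composite share over 42 libraries, 67.9% lay between the 7 replicas, 11.6% between TOP2A, TOP2B and input libraries and 0.261% between drug and no drug. The sequencing orders, which hold 1 or 3 replicas each, carried 65.1%. Of the variance of the acrocentric ratio, 54.4% lay between replicas, 33.3% between sequencing orders, 4.91% between drug and no drug and 1.61% between TOP2A, TOP2B and input. Replica, order and read length cannot be told apart where an order holds 1 replica.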

How the data were processed

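The deposited file is a table of raw read counts per region, made by the authors and not normalised, for 42 libraries. Trimmomatic 0.36, BWA 0.7.17, HTSeq and the T2T-CHM13 build are named in the submitters' processing notes. The sources used here do not give the mapping quality limit or the strand setting. The titles' alpha and beta were read as TOP2A and TOP2B. Region sequences, lengths and coordinates were not used here.

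Members and lists were chosen with earlier results of these data known. Shares are the reads of a set, plus 0.5 in ratios, over the region reads of the library, and were averaged over replicas without a test. CPM are counts scaled to 1000000 region reads. Wilson intervals are at 95%. Regions were tested with edgeR 4.0.16 (R 4.3.3; quasi-likelihood, TMM, filterByExpr with a minimum of 10), with Benjamini-Hochberg adjustment over all regions tested, a threshold of 0.05, and two-sided p-values. The 22 comparisons were fitted per series without a replica block, over the 21 untreated libraries with one, or over all 42 without one. DESeq2 1.42.0, limma 3.58.1 (voom), relative log expression factors, no filter, other pseudocounts and each replica left out were tried. On simulated data edgeR recovered the direction of the changes it was given. Those changes were larger than most reported here, with less spread than in the drug series and no replica effects. The simulation thus does not show that smaller changes would be found.

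Replicas share a label and a sequencing order, which is the source of the pairing. After group means were removed, each drug library was correlated with its no-drug partner over 912 regions. Of 21 values, 18 passed 0.1 (-0.495 to 0.937), 17 of them best with their own number. The values that did not pass were -0.121 for TOP2A in etoposide replica 3, and -0.297 for TOP2B and -0.495 for input in etoposide replica 4. TOP2B of etoposide replica 3 passed, at 0.149, but not best with its own number. The pairing of etoposide replicas 3 and 4 is thus less sure. No 2 libraries of a group were identical in 54 pairs. Regions were named by a rule: the 8 acrocentric and 8 other composites with the highest mean CPM, both ends of each comparison among those with a mean of at least 20 reads, and those past the threshold. The rule also lists bsat_22_6, which an earlier report named and which is among the first 8. bsat_20_1 was named after its value was seen.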

Additional observations from a re-analysis of the deposited data

Results flagged for a closer look

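In 86 groups or sets of 4 to 10 values, 11 had 1 sample far from the rest, and chance gives about 1 in 20. Replica 1 of the etoposide inputs with drug had a composite share of 1.18%, against 0.641% for the next, and accordingly 2796 CPM of bsat_1_1 (next 1222), 1768 CPM of bsat_22_12 (next 769) and 779.99 CPM of bsat_14_8 (next 338). In the same group, bsat_15_1 was highest in replica 2, at 765 CPM (next 591). Among no-drug TOP2A pulldowns of the etoposide series, replica 3 was lowest for bsat_1_1, at 747 CPM (next 906). Among no-drug TOP2B pulldowns, replica 1 was highest for bsat_14_8, at 317 CPM (next 239.7). The acrocentric share of composite reads was 74.6% in the no-drug input of etoposide replica 2, against 68.3% for the next.

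Of the changes, the TOP2B composite share of etoposide replica 3 fell by 0.84 on the log2 scale, where the nearest replica had 0.15. The etoposide effect in TOP2A minus input was 1.00 in replica 4, where the nearest had -0.16. The acrocentric ratio of untreated TOP2A to TOP2B was -0.42 in mitoxantrone replica 2, where the nearest had -0.05. That TOP2A library had 154 composite reads. None of 64 effects compared between the drug series had all replicas of one series opposite in sign to all replicas of the other.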

How the results depend on the processing

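Over 60 summary results (calls, composite shares and acrocentric ratios), 511 of 517 alternatives kept the outcome. The 6 others are these. For TOP2A against input without drug, where edgeR called 0 composites, DESeq2 called 7, edgeR without a filter 7, and leaving out each replica gave 0 to 9, the 9 without mitoxantrone replica 1. The replicate block was part of that fit. With no replicate block 0 of 24 composites had an unadjusted p under 0.05, against 13 with it, and 14 regions against 151. A block added to the series fits changed no call. Leaving bsat_1_1 out, chosen after seeing the data, moved the acrocentric ratio to -0.0892 for mitoxantrone against no drug in TOP2B, to -0.1068 for its effect in TOP2B minus input and to -0.1897 for TOP2B against input under mitoxantrone. The causes were not tested.

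Of 764 alternatives for 74 single-region results, 28 turned the sign, all of values that were called nowhere. With voom and a replicate block, bsat_21_7 had 0.1291 for untreated TOP2A against input, bsat_Y_11 -0.1255 for etoposide in input and -0.3014 for etoposide minus mitoxantrone in input, bsat_16_5 0.2315 and bsat_21_1 -0.1046 for the etoposide effect minus input in TOP2A and in TOP2B. With the replicate block in edgeR, bsat_21_7 had 0.0407 for TOP2B against input under mitoxantrone and 0.0609 for the mitoxantrone effect in TOP2A minus TOP2B (DESeq2 0.0802), and etoposide minus mitoxantrone was -0.0398 for bsat_21_1 in TOP2B and -0.0012 for bsat_Y_11 in input. With no replicate block, bsat_3_1 had 0.0856 for untreated TOP2A against input.

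Leaving out replicas in turn gave these ranges. Against input under etoposide, bsat_21_1 ran from -0.4274 to 0.1453 in TOP2A and from -0.3627 to 0.0211 in TOP2B. Against input under mitoxantrone, bsat_21_7 ran from -0.5224 to 0.16 in TOP2B. For etoposide, bsat_Y_11 ran from -0.0463 to 0.6756 in input and from -0.8222 to 0.0926 for TOP2B minus input, and bsat_16_5 from -1.035 to 0.0991 for TOP2A minus input. For mitoxantrone, bsat_16_5 ran from -0.7273 to 0.8544 in TOP2A and bsat_21_7 from -0.0596 to 0.5918 in input. For its effect in TOP2A minus TOP2B, bsat_21_7 ran from -0.1806 to 0.3114 and bsat_22_17 from -2.1648 to 0.226, and minus input bsat_3_1 ran from -0.7891 to 0.591 in TOP2A and from -0.3003 to 0.015 in TOP2B. For etoposide minus mitoxantrone, bsat_10_1 ran from -0.0008 to 1.4404 in TOP2A and bsat_Y_11 from -0.1835 to 0.7217 in input. These regions had a mean under 50 reads per library. The part of depth was not tested.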

Other observations

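The names divide the composites into 23 with the plain label and 41 that add no_beta. The plain ones held 91.9% of the composite reads and 67.6% lay in the 18 acrocentric plain regions. Chromosomes 9, 16 and 20 carry no_beta composites alone, and chromosomes 1, 3, 5, 10 and Y carry plain ones alone. Of the variance of the log2 no_beta to plain ratio, 79.2% lay between replicas and 73.0% between the sequencing orders that hold them, against 0.390% between TOP2A, TOP2B and input and 2.04% between drug and no drug. Replica, order and read length were not separated. Without drug, the no_beta to plain ratio was -0.02 ± 0.37 in TOP2A against input and 0.05 ± 0.23 in TOP2B against input (SD, n = 7).

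With mitoxantrone in TOP2B pulldown, the contrast all these composites were chosen from, no_beta composites changed by 0.61 ± 0.13 and plain ones by 0.33 ± 0.24 (SD, n = 3), which is a description and supports nothing. The no_beta to plain ratio changed by 0.28 ± 0.20 in TOP2B, 0.11 ± 0.45 in TOP2A and -0.13 ± 0.19 in input. In TOP2A its sign was mixed, at 0.03, 0.60 and -0.30 in replicas 1 to 3. With etoposide the ratio changed by -0.50 ± 0.60 in TOP2B, -0.34 ± 0.81 in TOP2A and -0.39 ± 0.47 in input (SD, n = 4). The difference between labels was not tested.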
